A study of Homo sapiens with 16 samples.

Results

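The genes described here belong to 2 arms of the cellular stress response: 21 genes of the ATF4 and amino acid arm and 13 genes of the endoplasmic reticulum chaperone arm. They form a named list of 34 genes, chosen with earlier results of these data known. Counts over the list therefore describe these genes and are no test of the list. Each gene was read from a transcript cluster of the array that carried exactly 1 gene symbol. Where a gene had several such clusters, the cluster with the highest mean over the arrays was used. All 34 were found among the 18417 genes with such a cluster, and all 34 passed the filter that left 16175 of 33297 clusters to be tested. ATF3 passed that filter with 3 arrays at the floor of log2 6, DNAJB9 with 12 and CHAC1 with 15, and the other members with all 16.

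The study measured RNA in 2 basal-like human breast cancer lines, HCC70 and MDA-MB-468, to ask what EZH2 does for lineage identity. EZH2 is the methyltransferase of Polycomb repressive complex 2, which marks histones at repressed genes, and EED holds that complex together. There were 8 groups of 2 arrays. HCC70 cells carried scrambled shRNA (set a), shRNA to EZH2 (shEZH2), scrambled shRNA again (set b), shRNA to EED (shEED), the empty vector plKO Puro, or an EZH2 cDNA vector (fip EZH2), and MDA-MB-468 cells carried scrambled shRNA or shEZH2. All 8 groups were infected with virus in polybrene, selected with puromycin, and plated to the same density shortly before the RNA was taken, so no group was free of infection or of the drug. The series' design gives every treatment a control, but the labels do not state which scrambled set serves which knockdown. Set a was taken for shEZH2 and set b for shEED, because the sample codes run in blocks of a control pair and a treated pair. What fip stands for is not stated, nor is the vector that carried the cDNA, so in that comparison the vector and the cDNA cannot be told apart. Nothing states that duplicates were separate cultures, so the p-values measure the spread between these samples, which may be technical.

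Cells that run short of amino acids or accumulate unfolded proteins phosphorylate the translation factor eIF2alpha, through the kinases GCN2 and PERK among others. Most protein synthesis then slows, while the mRNA of ATF4 is translated more, and ATF4 switches on genes for amino acid uptake and synthesis together with DDIT3, TRIB3 and other regulators. Unfolded protein in the endoplasmic reticulum also activates IRE1 and ATF6, whose products XBP1 and cleaved ATF6 switch on chaperones, disulfide isomerases and degradation factors. Much of the control of ATF4 lies in its translation, which an array of RNA does not measure.

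Short elements bound by these factors are known from promoters of both arms, and the sequences below show the matches found among the members. The 250 bases before each listed transcription start were searched on both strands in the RefSeq promoter table (GRCh38.p14), in which 31 of the 34 members had an entry. The endoplasmic reticulum stress response element, ERSE, was searched as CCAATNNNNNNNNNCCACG. It was present in 5 of 13 genes of the chaperone arm and 0 of 18 genes of the ATF4 arm, against 25 of all 27305 genes (0.0916%). ERSE-II was searched as ATTGGNCCACG and was present in 2 of 13 and 0 of 18, against 18 of all genes (0.0659%). The core of the C/EBP-ATF composite site to which ATF4 binds was searched as TGATGNAA. It was present in 3 of 18 genes of the ATF4 arm and in 1 of 13 of the chaperone arm, against 1061 of all genes (3.89%). In the windows shown, no element overlaps another. A match describes letters only, and a promoter without one is no evidence about the factor. Each sequence runs 5′ to 3′ along the gene, with the element in capitals; an element on the opposite strand appears as its reverse complement.
HSPA5, ERSE, chr9:125241371-125241429, minus strand: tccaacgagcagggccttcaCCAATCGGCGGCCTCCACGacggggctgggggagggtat
HSP90B1, ERSE nearer the start, chr12:103930301-103930359, plus strand: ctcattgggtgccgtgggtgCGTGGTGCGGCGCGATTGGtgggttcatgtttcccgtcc
PDIA6, ERSE, chr2:10812833-10812891, minus strand: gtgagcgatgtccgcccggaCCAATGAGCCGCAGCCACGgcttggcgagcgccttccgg
CALR, ERSE, chr19:12938364-12938422, plus strand: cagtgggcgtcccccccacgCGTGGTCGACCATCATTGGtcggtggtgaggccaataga
CRELD2, ERSE, chr22:49918534-49918592, plus strand: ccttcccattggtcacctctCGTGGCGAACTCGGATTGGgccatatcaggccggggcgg
HERPUD1, ERSE-II, chr16:56932005-56932055, plus strand: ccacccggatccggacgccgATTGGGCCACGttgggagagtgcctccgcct
SDF2L1, ERSE-II, chr22:21642094-21642144, plus strand: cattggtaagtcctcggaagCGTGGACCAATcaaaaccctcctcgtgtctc
ASNS, composite site core, chr7:97872449-97872496, minus strand: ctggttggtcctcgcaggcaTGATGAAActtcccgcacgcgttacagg
ATF3, composite site core, chr1:212565196-212565243, plus strand: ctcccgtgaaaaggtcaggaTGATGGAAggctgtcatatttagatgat
CHAC1, composite site core, chr15:40953242-40953289, plus strand: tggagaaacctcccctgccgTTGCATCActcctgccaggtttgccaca
HERPUD1, composite site core, chr16:56931946-56931993, plus strand: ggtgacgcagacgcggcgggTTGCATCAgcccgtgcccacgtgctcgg

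Values are log2 signals, changes are treated minus control with the standard error (SE) from limma, and a member is called when its Benjamini-Hochberg adjusted p from limma is under 0.05 over all tested clusters. The targeted genes checked the labels. EZH2 fell by 1.47 ± 0.07 in HCC70 shEZH2 (adjusted p = 3.35e-07) and by 1.67 ± 0.07 in MDA-MB-468 shEZH2 (adjusted p = 2.56e-07), and EED fell by 0.82 ± 0.11 in shEED (adjusted p = 0.000347). EZH2 was also lower with shEED, with a change of -0.24 ± 0.07 (adjusted p = 0.0456). With EZH2 cDNA, EZH2 was 0.29 ± 0.07 above the empty vector, which missed the threshold (adjusted p = 0.0961). All 7 epithelial markers checked were above log2 6 on all 16 arrays, and the leukocyte, endothelial and fibroblast markers PTPRC, CD3E, PECAM1, CDH5, COL1A2 and PDGFRB were below it on all 16; CD68 (7.37 to 9.86) and COL1A1 (6.29 to 7.56) were above it on all 16.

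With the controls taken here, the arms had clearly different counts in 1 of the 4 comparisons, the knockdown of EED in HCC70. There, 12 of 21 genes of the ATF4 arm rose and 0 fell, against 6.63% of all tested clusters called higher and 7.53% called lower. In the chaperone arm 0 of 13 rose and 1 fell. The median change was 0.329 in the ATF4 arm, with 20 of 21 genes above 0, and -0.071 in the chaperone arm, with 2 of 13 above 0; the median over all clusters was 0.024. Without 1 array at a time, the 12 calls of the ATF4 arm became 7 without either array of set b, 6 without shEED replicate 1 and 8 without shEED replicate 2, while calls over all clusters fell from 2290 to between 1013 and 1128. The 2 arrays of a group did not overlap with those of the control, on the higher side, for 19 of 21 genes of the ATF4 arm, where 38.2% of all clusters did the same, and on the lower side for 9 of 13 genes of the chaperone arm, against 30.3%.

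With the controls taken here, the other 3 comparisons gave few calls in either arm. With shEZH2 in HCC70 against set a, 1 of 21 ATF4 arm genes rose and 2 fell, and 0 of 13 chaperone arm genes were called. Of all clusters, 7.3% were called higher and 4.06% lower, and the arm medians were -0.107 and -0.03. These counts depended on the control. Against set b the ATF4 arm had 7 higher and 6 lower (11.3% and 15.4% of all clusters) and the chaperone arm 1 and 2. Against the empty vector they were 6 and 6 (13.8% and 10.8%) and 1 and 1. With EZH2 cDNA, 1 of 21 and 0 of 13 were called, against 0.977% of all clusters, and the medians were 0.04 and 0.014. With shEZH2 in MDA-MB-468, 0 of 21 and 0 of 13 were called, against 8.3% of all clusters, and the medians were -0.041 and -0.099. At an unadjusted p under 0.05, limma gave 5 of 13 chaperone arm genes with shEZH2 in HCC70, where 26.1% of all clusters passed, and 0 of 13 with EZH2 cDNA, where 10.4% passed. It gave 4 of 21 and 4 of 13 in MDA-MB-468, where 25.8% passed. Over the 4 comparisons, 16 members were called at least once, 18 never, and 1, STC2, more than once. The share of all clusters called at least once was not computed, so nothing is read from these counts.

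**Figure D1:**
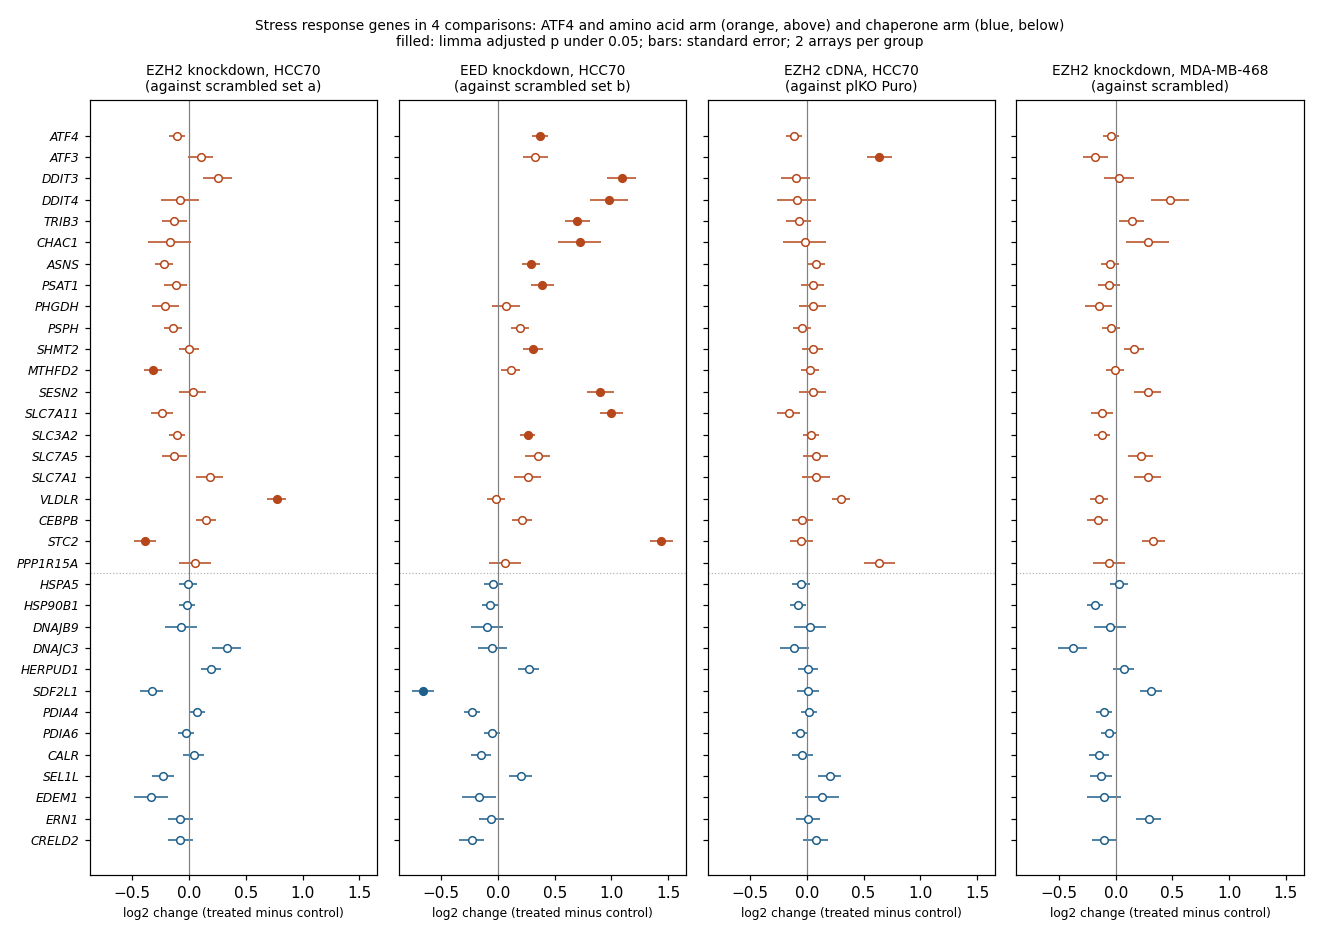
Log2 change (treated minus control, x axis) of each of the 34 genes (rows) in the 4 comparisons (panels); points are limma estimates from 2 arrays per group, bars are standard errors, and filled points have an adjusted p under 0.05. In the shEED panel 12 of the 21 genes of the ATF4 arm are filled to the right of 0, and in the chaperone arm SDF2L1 is filled to the left.

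The arms were also compared array by array, as the median over genes of the signal minus the gene's mean in that line. In the ATF4 arm, the shEED arrays stood at 0.372 and 0.278 and the other 10 HCC70 arrays between -0.214 and 0.016. Both shEED arrays thus lay above every other HCC70 array, the lowest being shEZH2 replicate 2. In the chaperone arm the shEED arrays stood at -0.045 and 0.019, inside the range of the other HCC70 arrays, -0.074 to 0.117. The highest chaperone arm values were those of set b, at 0.117 and 0.086. In MDA-MB-468 the ATF4 arm ran from -0.046 to 0.013 and the chaperone arm from -0.071 to 0.058, and the shEZH2 and scrambled arrays overlapped in both arms.

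**Figure D2:**
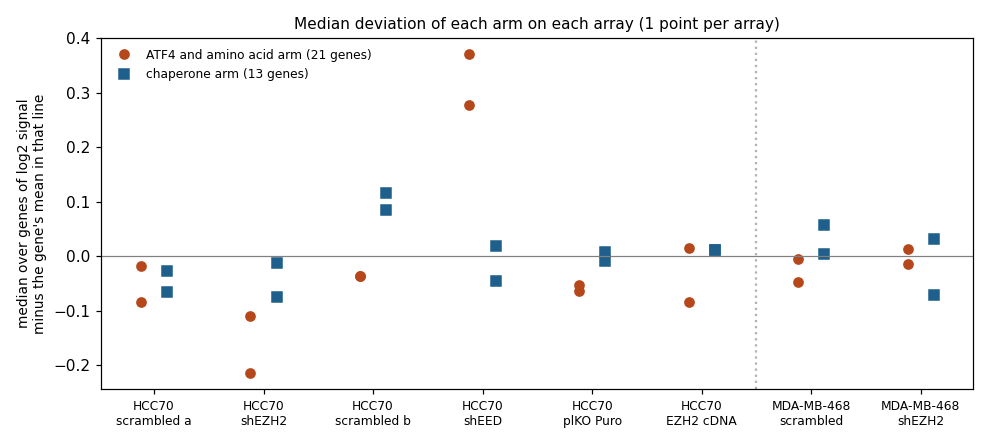
Median over the genes of each arm of log2 signal minus the gene's mean in that cell line (y axis), 1 point per array, by group (x axis). In HCC70 the 2 shEED arrays (0.372 and 0.278) lie above all other arrays for the ATF4 arm and within them for the chaperone arm.

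Among the transcription factors, DDIT3 (CHOP), a C/EBP family factor induced downstream of ATF4, rose on EED knockdown. Its signal was 7.72 and 7.73 with shEED and 6.55 and 6.72 in set b. Both shEED arrays were above both control arrays, by 1.09 ± 0.13 (2.13-fold, adjusted p = 0.000245). Set a, however, stood at 7.67 and 7.70, next to the shEED arrays, while the empty vector stood at 6.72 and 6.74, next to set b. Against set a the change was 0.04 ± 0.13 (adjusted p = 0.82). ATF4 itself, singled out here after its values were seen, was 11.41 and 11.36 with shEED, 11.01 and 11.03 in set b, 10.92 and 10.90 in set a, and 11.09 and 11.16 with the empty vector. Its shEED arrays lay above all 6 control arrays of HCC70, by 0.37 ± 0.07 over set b (adjusted p = 0.0048), 0.48 ± 0.07 over set a (0.000343) and 0.26 ± 0.07 over the empty vector (0.031). A dimmer cluster of ATF4, with a mean of 8.3 against 11.2, changed by 0.08 (adjusted p = 0.87), so the 2 clusters did not give the same call. The call of the brighter cluster was also lost without set b replicate 1 (0.35, adjusted p = 0.0527) or shEED replicate 1 (0.34, adjusted p = 0.0529). Against set b, CEBPB, another C/EBP factor, changed by 0.21 ± 0.09 (limma adjusted p = 0.164). ATF3, a stress-induced repressor, changed by 0.33 ± 0.11 (limma adjusted p = 0.0777). Its means were below the floor both with shEED (5.92) and in set b (5.59). ATF3 was called higher against set a (0.60, limma adjusted p = 0.00169) and the empty vector (0.50, limma adjusted p = 0.0155), and CEBPB against neither.

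The genes that restrain growth and translation split in the same manner. TRIB3, a pseudokinase that inhibits AKT and ATF4, was 8.54 on both shEED arrays, 7.81 and 7.87 in set b, 8.16 and 8.04 in set a and 8.08 and 7.95 with the empty vector. It was above all 6 controls, by 0.70 ± 0.11 over set b (1.62-fold, limma adjusted p = 0.00159). Over set a the rise was 0.44 ± 0.11 (limma adjusted p = 0.00993) and over the empty vector 0.52 ± 0.11 (limma adjusted p = 0.0119). DDIT4 (REDD1), an inhibitor of mTORC1, was 7.46 and 7.44 with shEED against 6.52 and 6.42 in set b, a rise of 0.98 ± 0.17 (1.97-fold, adjusted p = 0.00285). In set a it was 8.26 and 8.09, above shEED, so against that set DDIT4 was lower by 0.73 ± 0.17 (adjusted p = 0.00642). Against the empty vector DDIT4 was higher by 0.70 ± 0.17 (adjusted p = 0.0214). The direction of DDIT4 therefore turned between set a and the other control groups.

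SESN2, a leucine sensor that also inhibits mTORC1, was 7.12 and 7.10 with shEED and 6.24 and 6.17 in set b. All shEED values were higher, by 0.90 ± 0.12 (1.87-fold, adjusted p = 0.000476), but by only 0.24 ± 0.12 over set a (adjusted p = 0.152). Over the empty vector SESN2 rose by 0.91 ± 0.12 (adjusted p = 0.000726). CHAC1, which degrades glutathione, was 7.08 and 6.93 against 6.61 and 5.97 in set b. The groups did not overlap, though the arrays of set b lay far apart, and the rise was 0.72 ± 0.19 (1.65-fold, adjusted p = 0.0257). Without set b replicate 2 it was 0.40 (adjusted p = 0.245), and the call was also lost without shEED replicate 1 (0.64, adjusted p = 0.153) or 2 (0.79, adjusted p = 0.084). Set a was higher than shEED, at 7.43 and 7.35, and against it the change was -0.38 ± 0.19 (adjusted p = 0.134). Against the empty vector CHAC1 changed by 0.62 ± 0.19, which missed the threshold (adjusted p = 0.0514). PPP1R15A (GADD34), which directs the phosphatase that reverses eIF2alpha phosphorylation, was 8.33 and 8.11 with shEED and 8.19 and 8.13 in set b, and the arrays overlapped.

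The amino acid transporters contributed calls that did not turn with the control. SLC7A11 (xCT), the cystine importer, was 9.94 and 9.92 with shEED, 8.92 and 8.93 in set b, 8.04 and 7.99 in set a, and 8.98 and 9.04 with the empty vector. The shEED arrays were the highest of all 16, above set b by 1.00 ± 0.10 (2.0-fold, adjusted p = 5.1e-05), above set a by 1.92 ± 0.10 (3.77-fold, adjusted p = 2.07e-07) and above the empty vector by 0.92 ± 0.10 (1.89-fold, adjusted p = 0.000179). SLC3A2, the heavy chain that partners SLC7A11 and SLC7A5 at the cell surface, rose by 0.26 ± 0.07 (adjusted p = 0.0273), and its call was lost without either array of set b (0.28 and 0.23) or without shEED replicate 1 (0.19). Against set b, SLC7A5 (LAT1), an importer of large neutral amino acids, changed by 0.35 ± 0.11 (limma adjusted p = 0.0617) and did not pass. Nor did SLC7A1, a transporter of cationic amino acids, at 0.26 ± 0.12 (limma adjusted p = 0.177). SLC7A5 was called higher against set a (0.38, limma adjusted p = 0.0196) and the empty vector (0.46, limma adjusted p = 0.0203). SLC7A1 was called higher against set a (0.71, limma adjusted p = 0.000764) but not against the empty vector (0.26, limma adjusted p = 0.169).

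Of the 6 enzymes of asparagine, serine and one-carbon metabolism, 3 rose on EED knockdown by smaller amounts. PSAT1, the transaminase of serine synthesis, rose by 0.39 ± 0.10 (adjusted p = 0.0178), SHMT2, which moves a carbon from serine to folate in mitochondria, by 0.31 ± 0.09 (adjusted p = 0.0346), and ASNS, asparagine synthetase, by 0.29 ± 0.08 (adjusted p = 0.0362). PHGDH (0.07), PSPH (0.19) and MTHFD2 (0.11) did not pass against set b. The calls of PSAT1, SHMT2 and ASNS were each lost when any 1 of the 4 arrays was left out, with changes of 0.36 to 0.42, 0.26 to 0.36 and 0.27 to 0.30. PHGDH and PSPH catalyse the first and last steps of serine synthesis. Within that pathway only the middle step passed against set b, which is no test of a difference between the steps. Against set a, PHGDH was higher (0.53, limma adjusted p = 0.00533) and PSPH lower (-0.58, limma adjusted p = 0.000166).

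The secreted glycoprotein STC2 showed the largest change of the 34 genes in any of the 4 comparisons. It was 8.33 and 8.28 with shEED, 6.91 and 6.82 in set b, 7.11 and 7.10 in set a, and 7.18 and 7.28 with the empty vector. Both shEED arrays lay above all 6 controls; the rise over set b was 1.44 ± 0.10 (2.72-fold, adjusted p = 4.27e-06), over set a 1.21 ± 0.10 (adjusted p = 7.36e-06) and over the empty vector 1.08 ± 0.10 (adjusted p = 8.56e-05). VLDLR, a lipoprotein receptor whose gene is an ATF4 target, was 8.88 on both shEED arrays, within the range of set b (8.94 and 8.87).

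In the chaperone arm, SDF2L1, a component of endoplasmic reticulum chaperone complexes, was the one gene called on EED knockdown. It was 8.20 and 8.31 with shEED, 8.97 and 8.87 in set b, 9.20 and 9.07 in set a, and 8.70 and 8.58 with the empty vector. Both shEED arrays were the lowest of all 16, below set b by 0.66 (change -0.66 ± 0.10, adjusted p = 0.00103), below set a by 0.88 (change -0.88 ± 0.10, adjusted p = 5.58e-05) and below the empty vector by 0.38 (change -0.38 ± 0.10, adjusted p = 0.0278). HSPA5 (BiP), the main chaperone of the compartment and a gene with an ERSE, was 11.74 and 11.83 with shEED and 11.86 and 11.80 in set b. The arrays overlapped, and the change was -0.04 ± 0.08, with a 95% interval from -0.21 to 0.13. The other 11 genes of the arm changed by between -0.23 and 0.27 and did not pass. Among them, the chaperones HSP90B1 (GRP94) and CALR (calreticulin) changed by -0.07 ± 0.07 and -0.15 ± 0.09, the HSPA5 co-chaperones DNAJB9 and DNAJC3 by -0.10 ± 0.14 and -0.05 ± 0.13, and the disulfide isomerase PDIA6 by -0.05 ± 0.07. SEL1L and EDEM1, which pass misfolded proteins to degradation, changed by 0.20 ± 0.10 and -0.17 ± 0.15, and ERN1, which encodes the sensor IRE1, by -0.06 ± 0.11. The closest to the threshold were PDIA4, a disulfide isomerase, at -0.23 ± 0.07 (adjusted p = 0.0522), and HERPUD1, a degradation factor with both an ERSE-II and a composite site core, at 0.27 ± 0.09 (adjusted p = 0.0606).

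**Figure D3:**
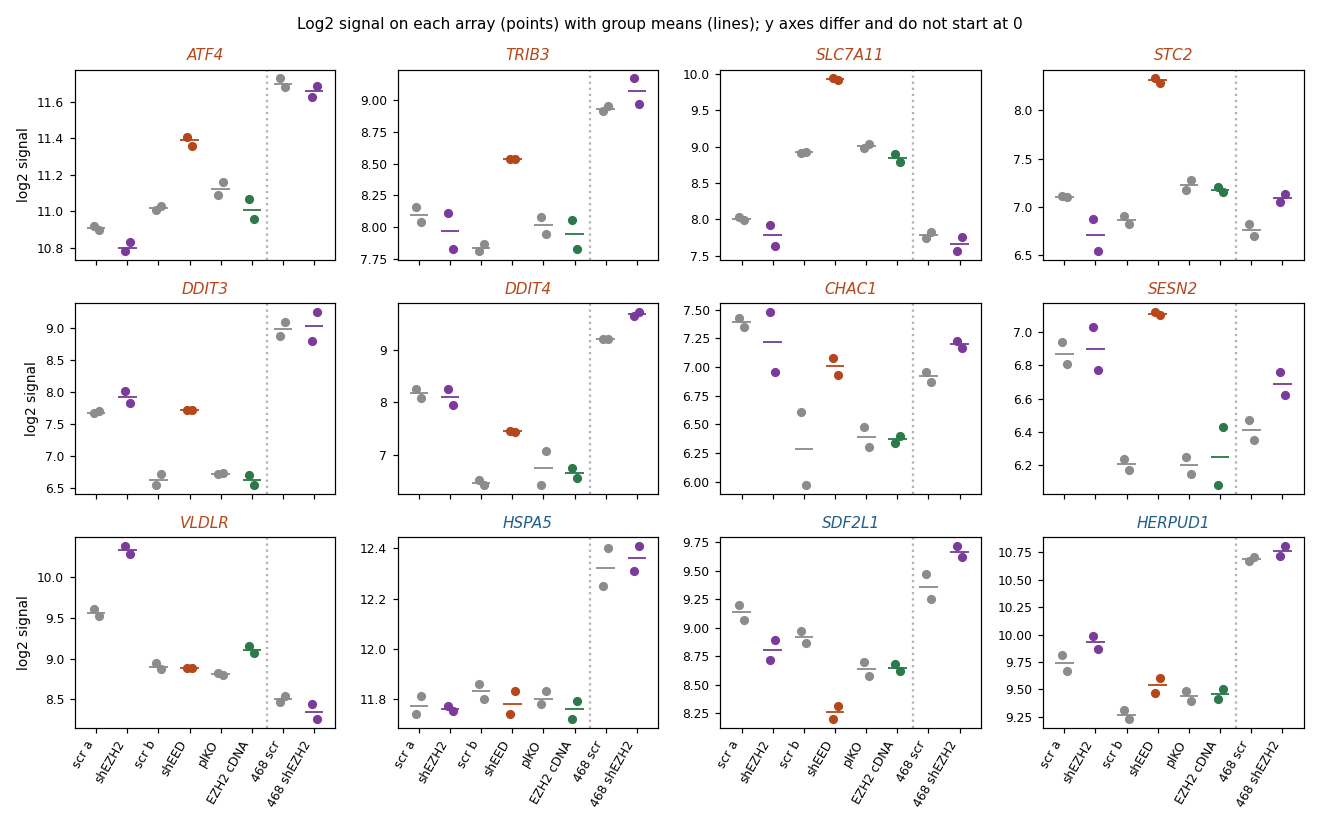
Log2 signal (y axes, which differ and do not start at 0) of 12 genes on each array (points) with group means (lines), by group (x axis). Among the HCC70 groups TRIB3, SLC7A11 and STC2 are highest with shEED, whereas DDIT3, DDIT4, CHAC1 and SESN2 are also high in scrambled set a and with shEZH2, and HSPA5 varies little within HCC70.

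Because the scrambled sets differed, the shEED arrays were set against each of the 3 HCC70 control groups in turn; these tests share the shEED arrays. In the ATF4 arm, 13 genes were called higher and 3 lower against set a (22.8% and 13.9% of all clusters), and 12 higher and 0 lower against the empty vector (8.62% and 4.89%). Of the 21 genes, 7 were called higher against all 3 control groups, where 3.43% of all clusters were: ATF4, TRIB3, PSAT1, SHMT2, SLC7A11, SLC3A2 and STC2. In the chaperone arm 2 genes were higher and 1 lower against set a, and 1 higher and 1 lower against the empty vector. SEL1L was higher against both, by 0.43 (limma adjusted p = 0.00637) and 0.40 (0.0231), and DNAJC3 against set a alone (0.55, 0.00515). In that arm 0 of 13 were higher against all 3, and 1, SDF2L1, was lower, where 2.78% of clusters were. DDIT3, DDIT4, CHAC1, SESN2 and ASNS were called against set b but not higher against all 3; ASNS passed against set a (0.68) and missed against the empty vector (0.23, adjusted p = 0.0855).

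**Figure D4:**
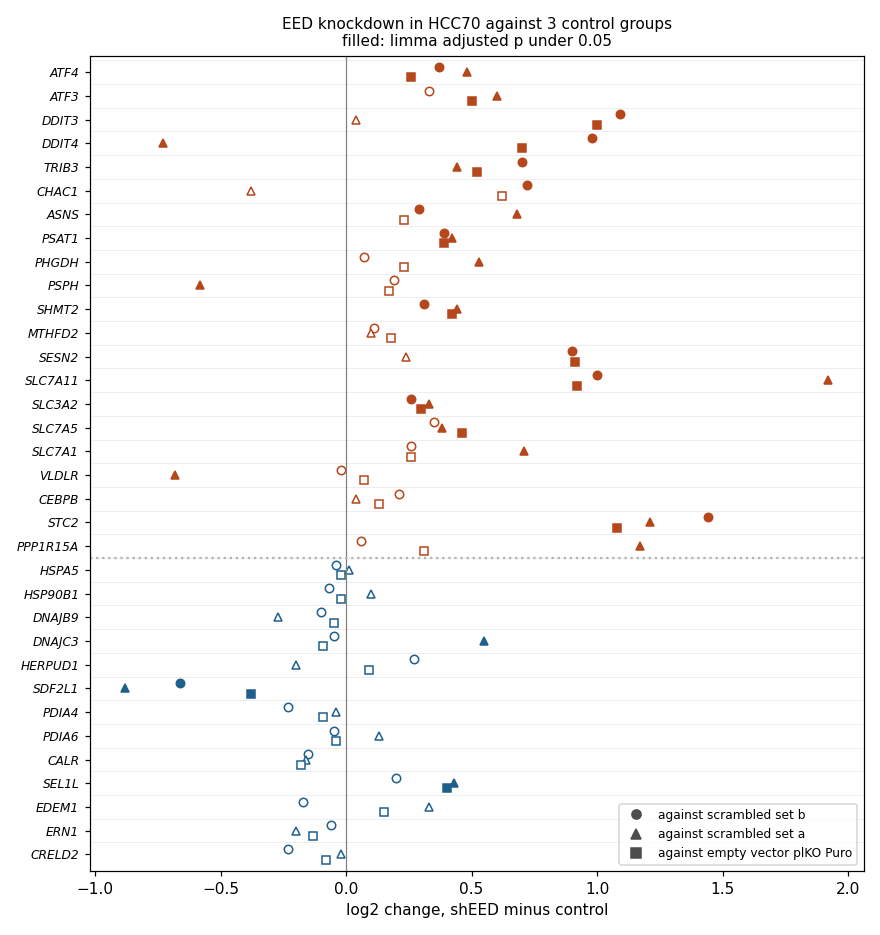
Log2 change of each gene with shEED in HCC70 (x axis) against scrambled set b, scrambled set a and the empty vector plKO Puro (marker shapes); filled markers have a limma adjusted p under 0.05, and each group is 2 arrays. STC2 and SLC7A11 lie to the right of 0 for all 3 controls and SDF2L1 to the left, while DDIT4 and PSPH lie on opposite sides of 0 depending on the control.

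The difference between the scrambled sets was itself large in these genes. Between sets a and b, 14 of 34 members were called, 7 in each direction, where 22.7% of all clusters were called. DDIT4 was higher in set a by 1.71 ± 0.17, CHAC1 by 1.10 ± 0.19, DDIT3 by 1.05 ± 0.13, PSPH by 0.77 ± 0.08, SESN2 by 0.67 ± 0.12 and VLDLR by 0.66 ± 0.08. PPP1R15A (-1.11 ± 0.14), SLC7A11 (-0.91 ± 0.10), ASNS (-0.40 ± 0.08), PHGDH (-0.46 ± 0.12) and SLC7A1 (-0.45 ± 0.12) were lower in set a. Genes of the same arm thus moved in opposite directions between 2 groups with the same label, and the arm median was -0.029. Set b and the empty vector differed in 0 of 34 members by limma, where 1.9% of all clusters were called. At an unadjusted p under 0.05 limma gave 2 members, STC2 and SDF2L1, where 15.2% of all clusters passed. Set a and the empty vector differed in 14 members, where 24.9% of all clusters were called. The labels do not say how sets a and b differed, and the part of that difference in the results was not tested.

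The 2 knockdowns in HCC70 were compared directly, as the shEZH2 change minus the shEED change. In the ATF4 arm, 10 of 21 genes had a lower change with shEZH2 and 1 a higher one, and in the chaperone arm 0 of 13 differed, where 1.96% of all clusters were lower and 4.35% higher. At an unadjusted p under 0.05, limma gave 3 of the 13, where 21.6% of all clusters passed. The count of 10 was 3 and 4 without replicates 1 and 2 of set a, 5 and 4 without those of set b, 4 and 5 without those of shEED, and 11 and 7 without those of shEZH2. The differences were -1.83 ± 0.15 for STC2 (adjusted p = 2.47e-05), -1.24 ± 0.14 for SLC7A11 (0.000263) and -0.83 ± 0.16 for TRIB3 (0.00948). With the scrambled sets exchanged, STC2 and SLC7A11 kept their direction and call, and TRIB3 lost its call (-0.31, adjusted p = 0.139), but DDIT3, DDIT4, CHAC1 and SESN2 turned to a higher change with shEZH2. The count in the ATF4 arm then became 13 lower and 6 higher, where 24.8% and 17.5% of all clusters were called.

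With shEZH2 in HCC70, VLDLR rose. It was 10.38 and 10.28 with shEZH2, 9.61 and 9.52 in set a, 8.94 and 8.87 in set b and 8.82 and 8.80 with the empty vector. The shEZH2 arrays were the highest of all 16, by 0.77 ± 0.08 over set a (1.7-fold, adjusted p = 0.000109), 1.42 ± 0.08 over set b (adjusted p = 3.67e-07) and 1.52 ± 0.08 over the empty vector (adjusted p = 3.73e-07). VLDLR was the 1 member called higher against all 3 control groups, where 2.8% of clusters were. STC2 fell, from 7.11 and 7.10 in set a to 6.88 and 6.54, a change of -0.39 ± 0.10 (adjusted p = 0.0312). MTHFD2, a mitochondrial folate enzyme, fell from 11.08 and 11.12 to 10.89 and 10.68, a change of -0.32 ± 0.08 (adjusted p = 0.0307), and its dimmer cluster changed by -0.38 (adjusted p = 0.0278). In both genes the shEZH2 duplicates lay further apart than their controls. Without shEZH2 replicate 2 the changes were -0.22 for STC2 (adjusted p = 0.143) and -0.21 for MTHFD2 (adjusted p = 0.134), and both calls were also lost without either array of set a (STC2 -0.39 and -0.40, MTHFD2 -0.34 and -0.30). The STC2 call also depended on the control: the change was -0.16 against set b (adjusted p = 0.286), -0.27 against both sets (adjusted p = 0.0526) and -0.52 against the empty vector (adjusted p = 0.00401). MTHFD2 changed by -0.31 against set b (adjusted p = 0.0183) and by -0.24 against the empty vector (adjusted p = 0.0586).

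Against set b, shEZH2 gave 7 ATF4 arm genes higher and 6 lower, where 11.3% and 15.4% of all clusters were called. DDIT4 (1.63), VLDLR (1.42), DDIT3 (1.30), CHAC1 (0.93), SESN2 (0.70) and PSPH (0.63) were higher, and SLC7A11 (-1.15), PPP1R15A (-1.06) and ASNS (-0.61) were lower. The remaining calls were CEBPB (0.32), which was higher, and PHGDH (-0.67), MTHFD2 (-0.31) and ATF4 (-0.22), which were lower. CEBPB, MTHFD2 and ATF4 were not called between sets a and b, a comparison that shares set b with this one. The other genes called here were also called between those sets. Against set a, VLDLR and MTHFD2 alone among the genes called here passed.

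With EZH2 cDNA in HCC70, ATF3 was the 1 gene called. It was 6.08 and 6.05 with the cDNA and 5.58 and 5.27 with the empty vector, and the groups did not overlap. The change was 0.64 ± 0.11 (1.56-fold, adjusted p = 0.0235). All other HCC70 arrays except shEED replicate 1 (6.02) were below the floor, so ATF3 entered the test through the arrays on which it was high, which favours a call. The call was lost without plKO Puro replicate 2 (0.48, adjusted p = 0.105) and without either cDNA array (0.62 and 0.66, adjusted p = 0.205 and 0.16). PPP1R15A was 8.55 on both cDNA arrays and 7.98 and 7.84 with the empty vector, a change of 0.64 ± 0.14 that missed the threshold (adjusted p = 0.0566). Changes in the chaperone arm ran from -0.11 to 0.20.

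In MDA-MB-468, shEZH2 changed no member beyond the threshold. The closest were STC2 (0.33 ± 0.10, adjusted p = 0.0724), SDF2L1 (0.31 ± 0.10, adjusted p = 0.0775), DNAJC3 (-0.38 ± 0.13, adjusted p = 0.0845), a co-chaperone that inhibits PERK, and DDIT4 (0.48 ± 0.17, adjusted p = 0.106). VLDLR was 8.44 and 8.26 with shEZH2 and 8.47 and 8.54 with scrambled shRNA. The groups did not overlap, but the change, -0.15 ± 0.08, did not pass, and it differed from that in HCC70 by 0.92 ± 0.11 (adjusted p = 0.000595). This contrast called 1 of 21 genes higher and 1 lower in the ATF4 arm and 1 higher and 1 lower of 13 in the chaperone arm, where 13.2% of all clusters were called.

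The scrambled controls of the lines were compared with each set of HCC70. Between the scrambled groups, HCC70 set a minus MDA-MB-468, 7 of 13 chaperone arm genes were lower in HCC70 and 0 higher, and in the ATF4 arm 7 of 21 were higher and 6 lower, where 36.7% of all clusters were lower and 30.3% higher. With set b, the chaperone arm had 6 lower and 2 higher and the ATF4 arm 7 in each direction, against 33.5% lower and 28.3% higher. So many clusters differed between the lines that nothing is read from the arm counts. HSPA5 was 11.74 and 11.81 in set a and 12.25 and 12.40 in MDA-MB-468, a difference of -0.55 ± 0.08 (adjusted p = 6.61e-05), and -0.50 ± 0.08 with set b (adjusted p = 0.000151). The other 6 with set a were HSP90B1 (-0.76), PDIA6 (-0.49), PDIA4 (-0.18), DNAJC3 (-0.85), HERPUD1 (-0.95) and DNAJB9 (-1.08), which are chaperones, isomerases and a degradation factor. PDIA4 (0.01, adjusted p = 0.923) and DNAJC3 (-0.25, adjusted p = 0.0978) were not called with set b, where PDIA4 was 11.09 and 11.11 and DNAJC3 9.53 and 9.45, against 11.08 and 11.11 and 9.71 and 9.78 in MDA-MB-468. In the ATF4 arm PSPH differed by -1.69 ± 0.08 with set a (adjusted p = 3.55e-09), and it ran from 10.71 to 10.81 on the 4 MDA-MB-468 arrays and no higher than 9.14 on the HCC70 arrays.

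The rest of the pathway was read from 4 lists of genes outside the 34, against the shares of all clusters called: 6.63% higher and 7.53% lower with shEED, 7.3% and 4.06% with shEZH2 in HCC70, 0.977% with EZH2 cDNA and 8.3% in MDA-MB-468. Against set a those shares were 22.8% and 13.9% with shEED, and against the empty vector 8.62% and 4.89%; with shEZH2 they were 11.3% and 15.4% against set b and 13.8% and 10.8% against the empty vector. Of 21 measured sensors and switches, 4 rose and 0 fell with shEED: CREB3L2 (0.50) and CREB3L4 (0.45), membrane-bound factors related to ATF6, CEBPG (0.30), a partner of ATF4, and EIF2AK3 (0.29), which encodes PERK. With shEZH2 in HCC70, 3 rose, EIF2AK3 (0.49), EIF2AK2 (0.42) and NFE2L2 (0.40), and EIF2B3 (-0.35) fell. The counts were 0 of 21 with EZH2 cDNA and 1, CREB3L2 (0.70), in MDA-MB-468. With shEED, 7 of the 21 were higher and 2 lower against set a, and 5 and 0 against the empty vector. With shEZH2, 3 were higher and 3 lower against set b, and 5 and 2 against the empty vector.

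Of 15 cytosolic tRNA synthetases, which load amino acids onto tRNA, 3 rose with shEED, FARSB (0.42), LARS1 (0.35) and IARS1 (0.25), and KARS1 fell (-0.23). None of the 15 was called with shEZH2 against set a, with EZH2 cDNA or in MDA-MB-468. These counts depended on the control: shEED gave 8 higher and 4 lower against set a and 3 and 0 against the empty vector, and shEZH2 gave 0 and 3 against set b and 1 and 4 against the empty vector. Of 19 other amino acid and one-carbon genes, 5 rose and 2 fell with shEED. The glycine transporter SLC6A9 rose by 1.05 ± 0.12 (adjusted p = 0.000113), the mitochondrial folate enzyme ALDH1L2 by 0.86 ± 0.14 (adjusted p = 0.00159), SLC36A1 by 0.63 and the aspartate transaminase GOT1 by 0.55, while SLC43A1 fell by 0.68 ± 0.11 (adjusted p = 0.00115). With shEZH2 in HCC70, 4 rose and 2 fell, led by BCAT1, the cytosolic transaminase of branched-chain amino acids, at 1.68 ± 0.16 (adjusted p = 4.5e-05). Here shEED gave 7 higher and 3 lower against set a and 4 and 1 against the empty vector, and shEZH2 gave 3 and 6 against set b and 2 and 2 against the empty vector. CTH, which makes cysteine, was the 1 gene called with EZH2 cDNA (0.61), and CTH (0.52) and SLC6A9 (0.43) rose in MDA-MB-468.

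Of 34 other genes of endoplasmic reticulum folding and degradation, 2 rose and 3 fell with shEED, with a median of 0.055. HSPA13 (0.37) and SEC61B (0.29) rose, and DERL3 (-0.35), SSR1 (-0.34) and TXNDC11 (-0.32) fell. With shEZH2 in HCC70, 5 rose, led by SIL1 (0.47), a nucleotide exchange factor for HSPA5, and EDEM2 (0.40), and 0 fell. Out of 34 genes, the counts with shEED were near the shares of all clusters given above. They were 8 higher and 3 lower against set a and 1 and 1 against the empty vector, and with shEZH2 4 and 2 against set b and 2 and 1 against the empty vector. None was called with EZH2 cDNA or in MDA-MB-468.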

How the data were processed

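The 34 genes, their arms and the 4 companion lists were chosen with earlier results of these data known, so no test was run on a list. For each array the authors deposited a log2 signal per transcript cluster, made with RMA in Affymetrix Expression Console, per the submitters' processing notes. RMA removes background, equalizes arrays and condenses the probes of a cluster, so changes of dim clusters tend to be understated. Its version and the genome build were not given in the sources used here. Clusters with at least 2 of 16 arrays at log2 6 were fitted with 8 group means in limma 3.58.1 (R 4.3.3; 8 residual and 3.69 prior degrees of freedom), two-sided. The fit was checked on simulated data. Figures were drawn with matplotlib 3.10.9 in Python 3.11.15.

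Members called in a comparison were given with all array values, at most 8 per comparison in the order of their change; of each companion list at most 5 called genes were named. Levels were never compared between clusters. Arrays have no read depth, and the number of arrays limits the precision. Same-numbered replicates were compared within each comparison, and their deviations correlated at r = 0.077, -0.002, 0.002 and -0.023. The labels give these replicates only a number in common, and whether they shared anything else was not tested. The tests against the empty vector, and that of set b against MDA-MB-468, were added after seeing the data.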

Additional observations from a re-analysis of the deposited data

Results flagged for a closer look

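The effect of EZH2 knockdown on 4 members differed between the lines by a limma contrast of the HCC70 change minus the MDA-MB-468 change (n = 2 arrays per group). VLDLR differed by 0.92 ± 0.11 (adjusted p = 0.000595), with a rise of 0.77 in HCC70 and a change of -0.15 in MDA-MB-468. STC2 differed by -0.72 ± 0.15 (adjusted p = 0.00982), with changes of -0.39 and 0.33. DNAJC3 differed by 0.70 ± 0.18 (adjusted p = 0.0243), with changes of 0.33 and -0.38, neither of which passed on its own. SDF2L1 differed by -0.64 ± 0.14 (adjusted p = 0.0145), with changes of -0.33 and 0.31, neither of which passed. The DNAJC3 call was lost without either array of set a (0.68 and 0.73), without MDA-MB-468 scrambled replicate 2 (0.67) and without MDA-MB-468 shEZH2 replicate 1 (0.59). It was also lost with set b in place of set a, where the difference was 0.10 (adjusted p = 0.75), and with both sets (0.40, adjusted p = 0.131). The SDF2L1 call was lost without set a replicate 1 (-0.57) and without MDA-MB-468 scrambled replicate 2 (-0.53), and with set b in place of set a (-0.42, adjusted p = 0.0653). With the 8 arrays of the contrast alone, the calls of STC2 (adjusted p = 0.0739), DNAJC3 (0.109) and SDF2L1 (0.0818) were lost.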

How the results depend on the processing

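With duplicates, limma borrows its error from all 8 groups, arrays give no depth, and dim genes such as ATF3 lie near the floor. Of the 13 members called with shEED, 7 kept their call without each array in turn (DDIT3, DDIT4, TRIB3, SESN2, SLC7A11, STC2 and SDF2L1). Under every setting run 4 kept it (TRIB3, SLC7A11, STC2 and SDF2L1), as did VLDLR with shEZH2 in HCC70. The share of all called clusters that kept their call was not computed, so nothing is read from these counts. A change of sign between values that both missed the threshold was not counted as a reversal. Causes were not tested unless a setting itself has fewer genes or arrays.

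With the sets exchanged, shEZH2 in HCC70 called 4325 clusters, with 7 higher and 6 lower in the ATF4 arm and 1 higher and 2 lower in the chaperone arm (median -0.119). DDIT4 (1.63), CHAC1 (0.93), PSPH (0.63) and PPP1R15A (-1.06) reversed. shEED called 5940 clusters, with 3 lower in the ATF4 arm (median 0.421) and 2 higher in the chaperone arm (median -0.018), and DDIT4 (-0.73), CHAC1 (-0.38), PSPH (-0.58) and DNAJC3 (0.55) reversed. The difference between the lines gave 5 higher and 5 lower in the ATF4 arm, where 8.17% and 7.99% of all clusters were called. DDIT4 (1.15), PSPH (0.67) and PPP1R15A (-1.0) were reversed there. The difference between the knockdowns called 6843 clusters, with 6 higher in the ATF4 arm and 2 higher and 5 lower in the chaperone arm. Reversed there were DDIT3 (1.25), DDIT4 (2.36), CHAC1 (1.31), PSPH (1.2), SESN2 (0.46), HSP90B1 (-0.28), DNAJC3 (-0.83), HERPUD1 (0.86) and PDIA6 (-0.33).

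With both sets pooled, shEZH2 called 3048 clusters, with 5 higher and 5 lower in the ATF4 arm and 1 higher and 2 lower in the chaperone arm, and DDIT4 (0.77), PSPH (0.24) and PPP1R15A (-0.50) reversed. shEED called 4465, with 2 lower in the ATF4 arm (median 0.406) and 1 higher in the chaperone arm (median -0.017), and PSPH (-0.19) reversed. For the difference between the lines there were 2 higher and 3 lower in the ATF4 arm and 0 higher in the chaperone arm. The share of all clusters is not given for that setting, so nothing is read from these counts. The difference between the knockdowns called 5169 clusters, with 3 higher in the ATF4 arm and 2 higher and 2 lower in the chaperone arm, and DDIT3 (0.20), DDIT4 (0.65), PSPH (0.43) and HERPUD1 (0.39) reversed. Against the empty vector, an alternative added after seeing the data, shEZH2 called 3977 clusters, with 6 higher and 6 lower in the ATF4 arm and 1 higher and 1 lower in the chaperone arm, and DDIT4 (1.35), CHAC1 (0.83), PSPH (0.61) and PPP1R15A (-0.80) reversed. shEED gave a median of 0.394 in the ATF4 arm and 1 higher in the chaperone arm.

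Other settings moved counts. Shares of all clusters called are not given here for these settings, so nothing is read from their member counts. With the 4 arrays of a comparison alone, which leaves fewer degrees of freedom, 276 (shEZH2 in HCC70), 4439 (shEED), 0 (EZH2 cDNA) and 21 (MDA-MB-468) clusters were called, with 0 lower in the ATF4 arm for shEZH2, 0 higher for EZH2 cDNA, and 1 higher and 2 lower in the chaperone arm for shEED. With its 8 arrays alone, the difference between the lines called 500 clusters, with 0 lower in the ATF4 arm and 0 in either direction in the chaperone arm. A floor of log2 7, clusters with 1 symbol only, and an intensity trend with a robust prior each gave 1 lower in the chaperone arm for shEZH2 and 1 higher and 2 lower for shEED; the latter pair of settings gave 2 higher in the ATF4 arm for EZH2 cDNA. No floor gave 0 lower in the ATF4 arm for shEZH2, 88 clusters for EZH2 cDNA and 848 in MDA-MB-468. Centring each array on its median gave 0 lower in the ATF4 arm for shEZH2, 95 clusters for EZH2 cDNA, 677 for the difference between the knockdowns, and arm medians of -0.097 and -0.155 in MDA-MB-468. A further quantile normalization gave 2 lower in the chaperone arm for shEED, a chaperone arm median of -0.053 in MDA-MB-468 and 2 lower in the ATF4 arm for the difference between the lines. The mean of a gene's clusters gave an ATF4 arm median of 0.028 in MDA-MB-468. Without ATF3, DDIT3, CEBPB, PPP1R15A and VLDLR the ATF4 arm gave 0.067 there, and 0 higher for shEZH2, for EZH2 cDNA and for both differences. Those counts of 0 were fixed in advance. The only genes of the arm called higher there, VLDLR and, for EZH2 cDNA, ATF3, were among those removed.

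The replicate number as a block gave 2483 clusters and 13 higher in the ATF4 arm for shEED, and 1500 clusters in MDA-MB-468. For EZH2 cDNA it gave 145 clusters and 2 higher in the ATF4 arm in place of 1. The labels give the pairs only a number in common.

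Leaving out 1 array at a time gave, for shEZH2 in HCC70, 688 to 1977 clusters, 0 to 4 lower in the ATF4 arm (median -0.132 to 0.012), and 0 to 1 higher and 0 to 1 lower in the chaperone arm. For shEED it gave 1013 to 1128 clusters and 6 to 8 higher in the ATF4 arm (median 0.269 to 0.382). For EZH2 cDNA it gave 14 to 97 clusters and 0 to 1 higher in the ATF4 arm. In MDA-MB-468 it gave 231 to 1552 clusters, 0 to 1 higher in each arm, and medians of -0.043 to 0.022 and -0.12 to 0.003. Between the lines, the difference gave 921 to 2633 clusters, 1 to 2 lower in the ATF4 arm, and 0 to 1 higher and 0 to 2 lower in the chaperone arm. Between the knockdowns, it gave 461 to 1522 clusters, 3 to 11 lower in the ATF4 arm and 0 to 1 higher in the chaperone arm.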
